A study of Homo sapiens with 4 samples.

Results

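Proteins that bind RNA are thought to help choose which RNAs leave a cell inside extracellular vesicles (EVs), and the mRNAs of such proteins can themselves be measured in the vesicles. The genes described here are 10 of this kind, HNRNPA2B1, SYNCRIP, YBX1, HNRNPA1, HNRNPC, HNRNPK, HNRNPU, ELAVL1, NCL and NPM1. They were chosen because their proteins have been proposed to sort RNA into vesicles or are abundant heterogeneous nuclear ribonucleoproteins (hnRNPs), and they were matched by Ensembl identifier by a rule that sets no threshold on their measured values. They are 10 of the 58051 gene identifiers in the total RNA tables, of which 19629 are protein-coding.

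Heterogeneous nuclear ribonucleoproteins coat new transcripts in the nucleus and take part in splicing, export and stability, and several of them shuttle to the cytoplasm. HNRNPA2B1 and SYNCRIP bind short motifs in miRNAs and have been described as guides of these miRNAs into exosomes, and YBX1 has been described as a sorter of miRNAs and other small RNAs. The measurements concern the transcripts of these genes in EVs, not the proteins.

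The study sequenced RNA from EVs that PC3 cells, a prostate cancer (PCa) line grown from a bone metastasis, released into medium with exosome-free serum. Vesicles were purified on qEV size exclusion columns, after an affinity column in the study's methods. A single condition was sequenced, untreated PC3-EVs, as 2 stranded total RNA libraries and as 2 small RNA libraries, each pair labelled as replicates 1 and 2 and called biological replicates in the study's methods. The titles of both total RNA libraries name vesicle sample EX1, while the description of replicate 2 names EX2, so whether they come from separate vesicle preparations is uncertain and their spread may be technical. PC3 is 1 established line, and no library of the PC3 cells themselves was analysed here, so a level in EVs cannot be set against the level in the cells, and more vesicles holding a transcript cannot be told apart from more copies per vesicle.

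Reads counted on genes numbered 489170 in replicate 1 and 475942 in replicate 2, which were 2.50% and 2.16% of the reads in the tables. A single read was therefore worth 2.04 and 2.10 CPM (counts scaled to a library total of 1000000 gene counts), and 3 reads, taken as the smallest level that can be shown, were worth 6.13 and 6.30 CPM. Intervals given below are 95% Wilson intervals of a library's share of gene counts, and they cover counting error only, since amplified reads are not independent molecules. The strand setting of the counting is not given in the sources used here, so reads counted on a gene may come from its other strand. Of 6 epithelial and PC3 markers, 5 had reads in both libraries, against 21.9% of the 19629 protein-coding genes. They were led by KRT8 with 966 and 1088 reads, and the list summed to 2510 and 2912 CPM. The prostate luminal genes KLK3 and KLK2 had 0 reads in both libraries. Of 8 markers of leukocytes, erythroid cells, hepatocytes and fibroblasts, 6 had 0 reads in both libraries, as did 11333 of the 19629 protein-coding genes. The fibroblast gene COL1A1 had 35 reads in replicate 1 and 1 in replicate 2, so that this list summed to 73.6 and 2.10 CPM. The part of these other RNAs in the differences between the libraries described below was not tested.

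Transcripts of the RNA-binding protein genes were present in PC3-EVs, and 3 of them held most of the signal. YBX1, HNRNPU and NCL together took 88.8% (replicate 1) and 90.7% (replicate 2) of the reads on the 10 genes, averaging 89.7% ± 1.32 (SD, n = 2). Summed over all 10 genes, the level was 4692 CPM (replicate 1) and 3919 CPM (replicate 2), averaging 4305 CPM ± 547 (SD, n = 2), which was 0.783% and 0.675% of the protein-coding counts. At least 1 read was found in both libraries for 9 of the 10 genes, against 21.9% of the 19629 protein-coding genes, and at least 10 reads in both for 8 of the 10, against 11.6%. The median of their mean levels was 79.7 CPM, and the median of all protein-coding genes was 0 CPM, since 11333 of them had no read in either library. By mean CPM the 10 genes stood at a median percentile of 95.4 among the protein-coding genes, between 81.8 for HNRNPA1 and 99.9 for YBX1. These places are descriptions only, since the genes were chosen in part as abundant hnRNPs and with earlier results of these data known.

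**Figure D1:**
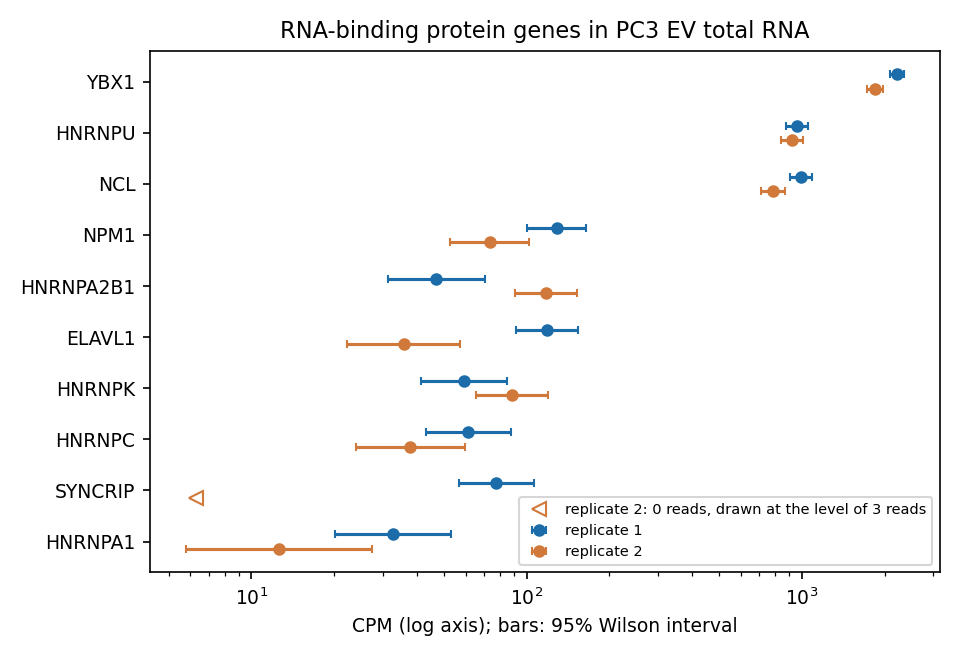
The plot gives the level of each RNA-binding protein gene in CPM (log axis) in replicate 1 and replicate 2, with 95% Wilson intervals as bars. YBX1, HNRNPU and NCL lie between 788 and 2212 CPM in both libraries, and the other 7 genes have means between 22.7 and 101 CPM, with SYNCRIP at 0 in replicate 2.

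Agreement between the libraries was close for the 3 abundant genes and loose for the others. For 5 of the 10 genes the intervals of the 2 libraries did not overlap, against 56.4% of the 5764 protein-coding genes whose reads in both libraries added up to 10 or more, so the share among the 10 was near that of genes in general. Among genes with 100 reads or more in the sum, the intervals did not overlap for 2 of 3 members and for 43.6% of 626 protein-coding genes. The higher library exceeded the lower by 1.04- to 1.26-fold for the 3 abundant genes and by 1.49- to 3.32-fold for the 6 others with reads in both. Of the 5 genes with separate intervals, YBX1, NCL, ELAVL1 and SYNCRIP were higher in replicate 1 and HNRNPA2B1 in replicate 2. The direction over all protein-coding genes was not counted.

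**Figure D2:**
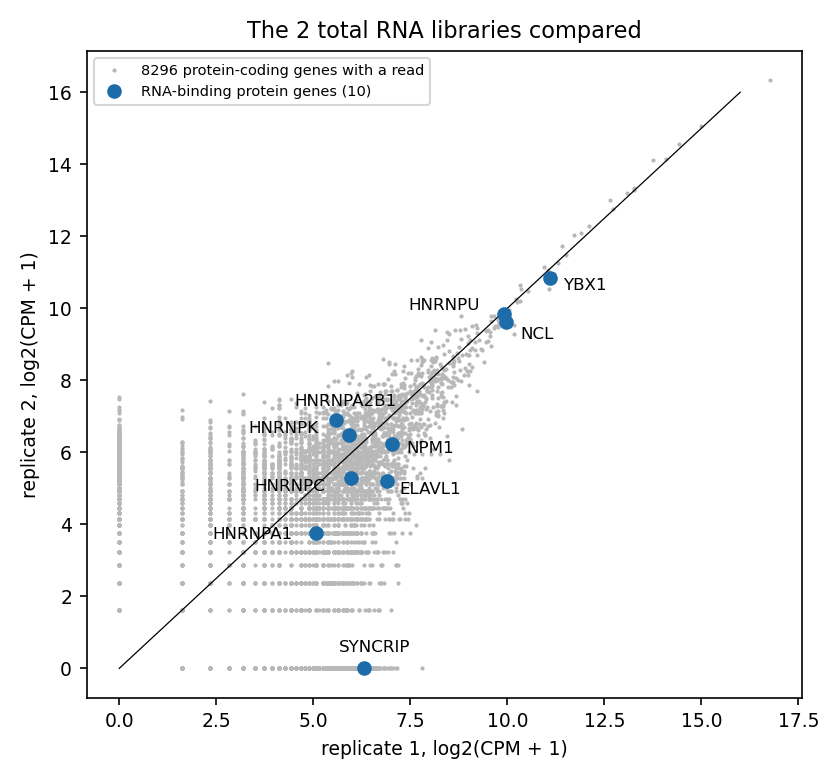
Each grey point is a protein-coding gene with a read in either library, placed by log2(CPM + 1) in replicate 1 and replicate 2, and blue points are the 10 RNA-binding protein genes, with the line of equal levels drawn. YBX1, NCL and HNRNPU sit close to the line at the upper end of the cloud, the others lie in its broad middle, and SYNCRIP lies on the axis of replicate 1.

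Of the proteins tied most directly to vesicle sorting, YBX1 had transcripts far above those of HNRNPA2B1 and SYNCRIP, by CPM and per length. The levels of HNRNPA2B1 and SYNCRIP overlapped between the libraries. HNRNPA2B1 (ENSG00000122566, GRCh38 chr7:26171151-26201529, minus strand), whose protein recognises miRNA motifs in exosome loading, had 23 reads in replicate 1 and 56 in replicate 2. These were 47.0 CPM (31.3 to 70.6) and 118 CPM (90.6 to 153), a mean of 82.3 CPM ± 50.0 (SD, n = 2). The intervals did not overlap, and replicate 2 was 2.50-fold higher. Among the other hnRNP genes described below, HNRNPM and HNRNPH1 were also higher in replicate 2, and HNRNPAB, HNRNPUL1 and RALY in replicate 1.

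SYNCRIP (ENSG00000135316, chr6:85607779-85644063, minus strand), also known as hnRNP Q and described as a miRNA sorter in hepatocyte exosomes, had 38 reads in replicate 1, 77.7 CPM (56.6 to 107), and 0 reads in replicate 2, which allows up to 6.30 CPM by the level of 3 reads. Against that level, replicate 1 was at least 12.3-fold higher. It was the only member with reads in a single library, which was the case for 30.5% of the protein-coding genes that reached 10 reads in the sum and for 7.78% of the 2777 that reached 30. Another gene of the lists with such a split was ELAVL2, a neuronal paralog of ELAVL1, with 36 reads in replicate 1 and 0 in replicate 2. The presence of SYNCRIP transcripts in PC3-EVs therefore rests on 1 library.

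YBX1 (ENSG00000065978, chr1:42682418-42703805, plus strand), a cold shock domain protein that binds RNA in the cytoplasm and has been linked to small RNA sorting, was the highest of the 10. It had 1082 and 877 reads, 2212 CPM (2084 to 2348) and 1843 CPM (1725 to 1969), a mean of 2027 CPM ± 261 (SD, n = 2). Replicate 1 was 1.20-fold higher and the intervals did not overlap. By mean CPM it ranked 21 among the protein-coding genes, and without it the summed level of the others was 2278 CPM.

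The small RNA libraries bear on HNRNPA2B1 and SYNCRIP from another side, because both proteins have been tied to short motifs in miRNAs. The motifs searched were GGAG and CCCU for HNRNPA2B1 and GGCU for SYNCRIP, in the mature strand as written, since a mature miRNA is single-stranded. Of 2588 miRNA names in the small RNA table, 2281 matched a RefSeq mature sequence (GRCh38.p14), and these held 90.2% of the 154185 miRNA counts in the first library and 91.2% of the 113185 in the second. The small RNA columns share 1 name, so their libraries carry no replicate number and are not paired with the total RNA libraries. All shares below are of the counts on matched names.

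The 4 miRNAs with the highest counts for each motif are printed because they carry most of the motif counts, with the motif in capitals. For GGAG they held 95.03% of the motif counts.
hsa-miR-3135b: ggcuGGAGcgagugcaguggug
hsa-miR-1246: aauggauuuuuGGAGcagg
hsa-miR-378a-3p: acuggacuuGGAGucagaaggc
hsa-miR-658: ggcGGAGggaaguagguccguuggu

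For CCCU the 4 highest held 76.8% of the motif counts, and 2 of these sequences hold the motif at 2 places.
hsa-miR-423-3p: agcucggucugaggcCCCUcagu
hsa-miR-125b-5p: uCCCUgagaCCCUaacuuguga
hsa-miR-125a-5p: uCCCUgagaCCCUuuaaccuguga
hsa-miR-1291: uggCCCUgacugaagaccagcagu

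For GGCU the 4 highest held 96.1% of the motif counts, and miR-3135b appears again because its first bases are GGCU and its next ones GGAG.
hsa-miR-4448: GGCUccuuggucuaggggua
hsa-miR-3135b: GGCUggagcgagugcaguggug
hsa-miR-26a-5p: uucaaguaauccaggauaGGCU
hsa-miR-24-3p: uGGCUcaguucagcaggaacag

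Counts on miRNAs with GGAG made up 9.56% (9.41 to 9.72) of the first small RNA library and 9.77% (9.59 to 9.95) of the other, which averaged 9.67% ± 0.144 (SD, n = 2). The motif is held by 359 names, 15.7% of all matched names, and by 14.7% of the 319 names with at least 1 read in both libraries. The share of counts was thus below the share of names, and the intervals of the 2 libraries overlapped. This direction turned without the 2 miRNAs with the highest counts, miR-3182 and miR-4448, neither of which holds GGAG, when the share was 23.99%. These counts came mainly from miR-3135b (chr6:32749952-32749973, minus strand), with 6751 and 4855 reads, and miR-1246 (chr2:176601024-176601042, minus strand), with 4035 and 3599 reads.

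The second motif tied to HNRNPA2B1 was rare in the counts. CCCU is held by 275 names, 12.1% of the total and 7.84% of those found in both libraries, but took only 0.729% and 0.468% of the counts, a mean of 0.599% ± 0.185 (SD, n = 2), and the intervals, 0.686 to 0.776 and 0.428 to 0.512, did not overlap. Its highest miRNA was miR-423-3p (chr17:30117131-30117153, plus strand), with 339 and 170 reads.

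GGCU, the motif tied to SYNCRIP, is held by 282 names, 12.4% of the total and 15.05% of those found in both libraries. It took 29.7% (29.4 to 29.9) of the first library's counts and 38.04% (37.7 to 38.3) of those in the second, averaging 33.9% ± 5.91 (SD, n = 2). The intervals did not overlap, and both shares were above the share of names. A single miRNA, miR-4448 (chr3:183886860-183886879, plus strand), had 31086 and 32691 reads and held 79.2% of the motif counts. Without miR-3135b, miR-4448 and miR-1246, an alternative chosen after the data were seen, the shares were 2.60% for GGAG and 3.14% for GGCU, both below the share of names. Without miR-3182 and miR-4448 the share of GGCU was 16.9%, above the share of names. A motif match describes the letters only and does not show binding by either protein. Whether the reads on miR-4448, miR-3135b, miR-1246 and miR-3182 come from these miRNAs or from other RNAs of like sequence was not tested.

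**Figure D3:**
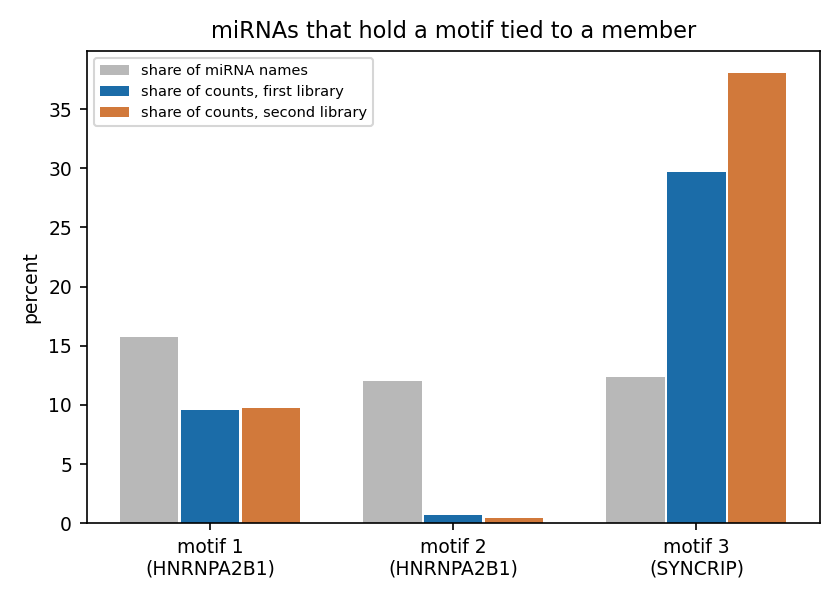
The bars give the percent of names and, for the first and the second small RNA library, the percent of counts on mature miRNAs that hold motif 1 (GGAG), motif 2 (CCCU) and motif 3 (GGCU). For motif 3 the counts reach 29.7% and 38.04% against 12.4% of names, while for motif 1 and motif 2 the counts lie below the share of names.

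Among the 4 abundant hnRNPs, HNRNPU was highest. HNRNPU (ENSG00000153187, chr1:244840638-244864560, minus strand), a scaffold protein that binds RNA and chromatin, had 470 and 439 reads, 961 CPM (878 to 1052) and 922 CPM (840 to 1013). Its mean was 942 CPM ± 27.2 (SD, n = 2), and the libraries differed by 1.04-fold, less than for any of the other 9 genes. By mean CPM it ranked 30 among the protein-coding genes.

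HNRNPK, HNRNPC and HNRNPA1 lay lower, by CPM and per length. HNRNPK (ENSG00000165119, chr9:83968083-83980631, minus strand), which binds C-rich stretches, had 29 and 42 reads, 59.3 CPM (41.3 to 85.1) and 88.2 CPM (65.3 to 119), a mean of 73.8 CPM ± 20.5 (SD, n = 2). HNRNPC (ENSG00000092199, chr14:21209136-21269494, minus strand), which binds U-rich stretches of nuclear transcripts, had 30 and 18 reads, 61.3 CPM (43.0 to 87.5) and 37.8 CPM (23.9 to 59.8), a mean of 49.6 CPM ± 16.6 (SD, n = 2). The intervals of the libraries overlapped for both genes, in opposite directions.

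HNRNPA1 (ENSG00000135486, chr12:54280193-54287088, plus strand), a splicing regulator also described as a miRNA-binding vesicle protein, was the lowest of the 10 by mean CPM. It had 16 and 6 reads, 32.7 CPM (20.1 to 53.1) and 12.6 CPM (5.78 to 27.5), a mean of 22.7 CPM ± 14.2 (SD, n = 2), and the intervals overlapped. In replicate 2 its lower bound was under the level of 3 reads. HNRNPA1L2 (ENSG00000139675), an intronless gene named after HNRNPA1, had 16 and 8 reads, the same count as HNRNPA1 in replicate 1, on 1343 annotated exon bases against 6697 for HNRNPA1.

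ELAVL1 (ENSG00000066044, chr19:7958573-8005659, minus strand) encodes HuR, which binds AU-rich elements and stabilises mRNAs. It had 58 reads in replicate 1 and 17 in replicate 2, 119 CPM (91.7 to 153) and 35.7 CPM (22.3 to 57.2), a mean of 77.1 CPM ± 58.6 (SD, n = 2). The intervals did not overlap, and replicate 1 was 3.32-fold higher, the widest gap among the 9 genes with reads in both libraries. Its neuronal paralogs ELAVL3 and ELAVL4 had 0 reads in both libraries.

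The nucleolar proteins NCL and NPM1, both chaperones of ribosome assembly that also shuttle to the cytoplasm, differed in counted level, with NCL higher in both libraries by CPM and per length. Of the 75-base windows of the canonical transcript described below, 95.7% had no copy elsewhere in the genome for NCL, against 7.38% for NPM1. The part of uncounted reads in this difference was not tested. NCL (ENSG00000115053, chr2:231453531-231483641, minus strand) had 486 and 375 reads, 994 CPM (909 to 1086) and 788 CPM (712 to 872), a mean of 891 CPM ± 145 (SD, n = 2). Replicate 1 was 1.26-fold higher with no overlap of the intervals, and the gene ranked 35 among the protein-coding genes by mean CPM. NPM1 (ENSG00000181163, chr5:171387116-171411810, plus strand) had 63 and 35 reads, 129 CPM (101 to 165) and 73.5 CPM (52.9 to 102), a mean of 101 CPM ± 39.1 (SD, n = 2), with intervals that overlapped.

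Levels between genes are comparable only per length, so CPM was divided by the kilobases of annotated exon of each gene. YBX1 led with 597 CPM per kilobase ± 76.9 (SD, n = 2), followed by NCL with 99.9 ± 16.3 and HNRNPU with 41.8 ± 1.21. Each of these 3 lay above the next gene in both libraries. Below them HNRNPK had 12.9 CPM per kilobase ± 3.59, NPM1 12.2 ± 4.70, ELAVL1 11.1 ± 8.41, HNRNPC 6.80 ± 2.28, HNRNPA2B1 6.53 ± 3.96, SYNCRIP 3.72 ± 5.26 and HNRNPA1 3.38 ± 2.12, and every neighbouring pair in this stretch overlapped between the libraries. HNRNPU and NCL changed places relative to CPM, because the annotated exons of HNRNPU cover 22512 bases and those of NCL 8919.

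Per kilobase of the canonical transcript, a length chosen after the data were seen, the first 3 kept their order, with 681 ± 87.6 for YBX1, 227 ± 37.1 for NCL and 137 ± 3.96 for HNRNPU (CPM per kilobase, SD, n = 2). NPM1, whose canonical transcript has only 1320 bases, then stood at 76.6 ± 29.6, apart from HNRNPK at 25.5 ± 7.09 in both libraries. HNRNPA1 was again lowest at 6.05 ± 3.80. The median percentile among protein-coding genes was 92.7 per kilobase of exon and 94.1 per kilobase of canonical transcript.

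**Figure D4:**
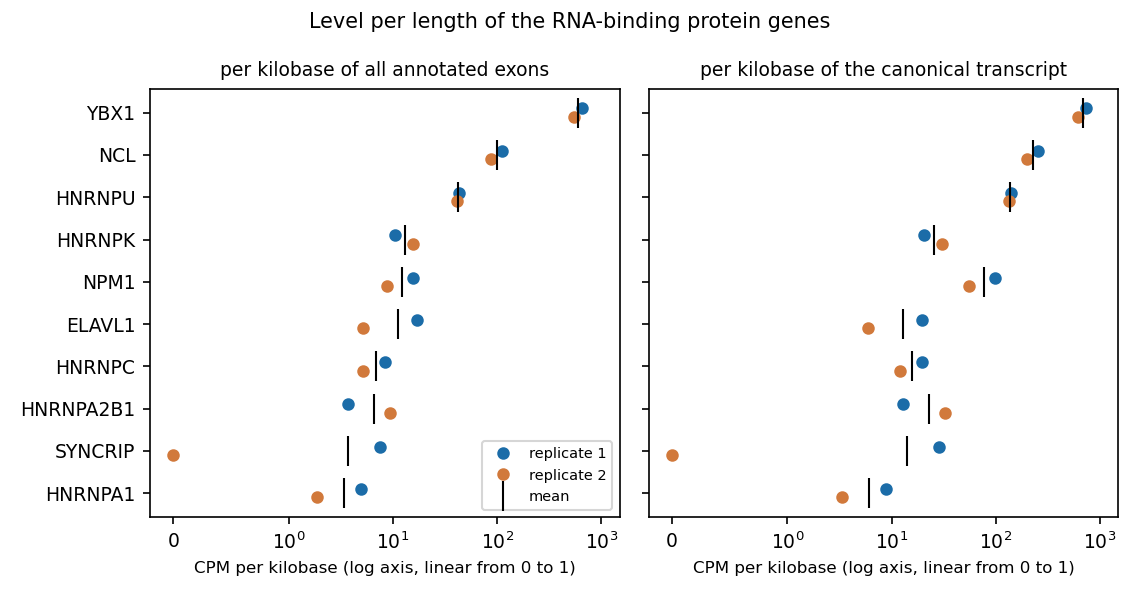
Points give CPM per kilobase in replicate 1 and replicate 2 for the 10 genes, with the mean as a bar, per kilobase of all annotated exons on the left and of the canonical transcript on the right (log axis, linear from 0 to 1). YBX1, NCL and HNRNPU are in this order in both panels, and NPM1 rises from 12.2 on the left to 76.6 on the right.

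How much of each transcript has a copy elsewhere in the genome differs between the genes. Reads that fit several places were set aside, 45.5% of all reads in replicate 1 and 48.1% in replicate 2. The share of 75-base windows of the annotated transcripts with no copy elsewhere in GRCh38, allowing 2 mismatches, was 98.3% for NCL, 97.4% for HNRNPA2B1, 97.04% for HNRNPU, 95.6% for ELAVL1, 88.9% for SYNCRIP, 84.5% for NPM1, 83.6% for HNRNPA1, 81.3% for HNRNPC, 74.9% for HNRNPK and 59.1% for YBX1. In the canonical transcript alone the share was 100% for HNRNPA2B1 and ELAVL1 but 56.6% for HNRNPA1, 51.1% for HNRNPC, 44.9% for HNRNPK and 7.38% for NPM1. For NPM1 only 92 of 1246 windows were without a copy. The canonical share was 51.6% for YBX1, 67.3% for SYNCRIP, 92.8% for HNRNPU and 95.7% for NCL. A read from a window with a copy at 2 mismatches may still fit 1 place best, so these shares are not the shares of reads counted. The part of uncounted reads in the order of the levels was not tested.

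**Figure D5:**
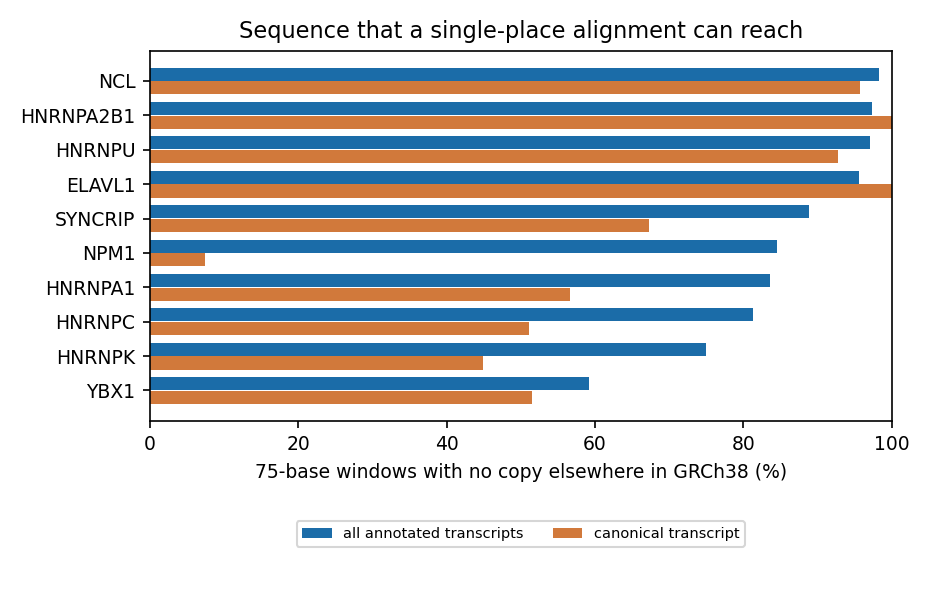
Bars give, for each of the 10 genes, the percent of 75-base windows with no copy elsewhere in the genome, over all annotated transcripts and over the canonical transcript. The canonical share falls to 7.38% for NPM1 and stays at 100% for HNRNPA2B1 and ELAVL1.

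Many annotated pseudogenes are named after these genes, 74 after HNRNPA1, 49 after NPM1, 10 after YBX1 and 9 after HNRNPC. Reads were counted on 7 of 150 such pseudogenes, 36 in replicate 1 and 37 in replicate 2, against 2295 and 1865 on the 10 genes. NPM1P27 had 0 and 24 reads, while NPM1 itself had 63 and 35. YBX1P10 had 16 and 0 reads and YBX1P1 10 and 2, small beside the 1082 and 877 of YBX1. No pseudogene carries the name of HNRNPA2B1, SYNCRIP or ELAVL1.

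Among the genes that overlap a member on the other strand, only HNRNPK-AS1 had more reads than the member. HNRNPK-AS1 (ENSG00000235298, chr9:83972233-83975777, plus strand), an antisense lncRNA inside the HNRNPK span, had 83 and 120 reads, 2.86 times the count of HNRNPK in each library. Its level was 541 CPM per kilobase over only 390 exon bases, of which 309 are also exon of HNRNPK, against 12.9 for HNRNPK. The library kit marks strand, but the strand setting of the counting is not given in the sources used here, so the 2 genes may share reads and both counts are uncertain. COX20 shares 3502 exon bases with HNRNPU and had 33 and 41 reads, less than 10% of the HNRNPU count in each library. CBX3, which shares 368 exon bases with HNRNPA2B1, had 13 and 26 reads, fewer than HNRNPA2B1 in each library. The part of shared reads in either count was not tested. On the same strand, a protein-coding gene without a symbol (ENSG00000271793) shares 2832 exon bases, 27.1% of the exon length, with SYNCRIP and had 0 reads in both libraries. Reads on bases that both genes annotate would be set aside as ambiguous by default HTSeq counting.

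Transcripts of most other hnRNPs were also found in PC3-EVs. Of 20 other hnRNP genes, 16 had reads in both libraries and 13 had at least 10 in both, against the 21.9% and 11.6% of protein-coding genes given above. They summed to 1155 and 1198 CPM, a mean of 1176 CPM ± 30.1 (SD, n = 2), and their median level was 47.7 CPM. HNRNPAB, a relative of HNRNPD, was highest with 159 and 74 reads, 240 CPM ± 120 (SD, n = 2). Its level per kilobase of exon was 113 CPM ± 56.6 (SD, n = 2), above the mean of HNRNPU and within its own spread of that of NCL. HNRNPUL1, a relative of HNRNPU, followed with 79 and 67 reads, RALY, a relative of HNRNPC, with 76 and 38, and the splicing factor HNRNPM with 44 and 54. HNRNPL, HNRNPUL2 and HNRNPR, the closest relative of SYNCRIP, had 0 reads in both libraries. The share of canonical windows without a copy is 54.3% for HNRNPL, 94.2% for HNRNPR and 100% for HNRNPUL2. For 7 of the 17 with 10 reads or more in the sum the intervals of the libraries did not overlap, against the 56.4% of protein-coding genes given above. The widest gap among those with reads in both libraries was that of HNRNPH1, with 1 and 57 reads.

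Of 8 other proteins proposed to take part in vesicle RNA sorting, 5 had reads in both libraries, against 21.9% of the protein-coding genes. ALYREF, an mRNA export factor, had 30 and 48 reads, 81.1 CPM ± 27.9 (SD, n = 2). AGO2, the miRNA effector, had 27 and 33 reads, 62.3 CPM ± 10.0 (SD, n = 2), and the ubiquitin ligase MEX3C had 13 and 11 reads. FMR1 and IGF2BP1 had 0 reads in both libraries. Of 7 tissue-restricted paralogs of the 10 genes, 2 had reads in both libraries, which was 28.6% and near the 21.9% of protein-coding genes. ELAVL3, ELAVL4, YBX2 and HNRNPCL1 had 0 in both.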

How the data were processed

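Total RNA and small RNA of PC3-EVs were sequenced, and the authors deposited raw read counts per Ensembl gene, written by HTSeq after mapping to GRCh38, and raw read counts per mature miRNA, made with Cutadapt and SHRiMP. Versions, annotation release and strand setting are not given in the sources used here. Rows that name no gene (not unique, ambiguous, no feature and the like) held 97.5% and 97.8% of the reads and stayed out of library totals. Gene counts were scaled to CPM, with 95% Wilson intervals, and gene models came from GENCODE release 44 on GRCh38, which matched 56948 of 58051 identifiers. Exon length is the union of annotated exons. Windows of 75 bases were searched on both strands of the primary chromosomes with 2 mismatches, and the search was tested on simulated data against brute force.

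With 1 condition there is no test between conditions and no p-value. Alternatives were other count minimums, scalings, window lengths and leaving out each library. The 10 genes and the lists were chosen with earlier results of these data known. Named were all 10 genes, the 4 highest and the unread genes of each list, overlapping genes and pseudogenes with at least 10 reads summed, and the 4 highest miRNAs per motif. COL1A1, HNRNPH1 and ENSG00000271793 fall outside this rule and were named after their values were seen. Some genes that the rule or the marker lists cover are not reported here. Scaling factors came from edgeR 4.0.16 and DESeq2 1.42.0 in R 4.3.3, and other values from Python 3.11.15 with pandas 2.3.3, numpy 2.4.6, scipy 1.17.1 and matplotlib 3.10.9.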

Additional observations from a re-analysis of the deposited data

How the results depend on the processing

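No paired analysis was possible because all libraries belong to 1 condition and no value came from a test. Under edgeR TMM factors and DESeq2 size factors the summed level of 4305 CPM and the 10 single levels moved by less than the SD of the replicates, but the sum was 7292 when scaled to protein-coding counts, 7647 when scaled without the 10 highest genes, and 2278 without YBX1 (chosen after the data were seen). The median percentile was 92.7 per kilobase of exon, 94.1 per kilobase of canonical transcript and 89.2 among genes with a read in either library. The median share of windows without a copy, 86.7%, was 84.5% with 50 bases, 89.8% with 150 bases and 62.0% in the canonical transcript. Without the 2 miRNAs with the highest counts, miR-3182 and miR-4448, the shares were 23.99% for GGAG, 1.46% for CCCU and 16.9% for GGCU, and without miR-3135b, miR-4448 and miR-1246 they were 2.60%, 0.911% and 3.14%. Leaving out each library gave 9 to 10 genes with a read, a sum of 3919 to 4692 CPM, a percentile of 95.01 to 95.7, and shares of 9.56 to 9.77% for GGAG, 0.468 to 0.729% for CCCU and 29.7 to 38.04% for GGCU. The intervals of the libraries stayed apart for 4 of the 10 genes at 99%, and the share of protein-coding genes at that level was not counted. Depth limits HNRNPA1, HNRNPC, HNRNPA2B1, HNRNPK and ELAVL1 most, with under 30 reads in at least 1 library, and SYNCRIP rests on replicate 1 alone.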
